A study of Mus musculus with 2 samples.

Results

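MicroRNA genes known from epithelial and pancreatic cells were examined in the small RNA of embryonic mouse liver. The set held 10 of the 1973 microRNA genes counted. The epithelial genes were the miR-200 family (Mir200a, Mir200b, Mir429, Mir200c and Mir141), Mir203 and Mir205, and the pancreatic genes were Mir375, Mir216a and Mir217. They were chosen by name, with earlier results of these data known. All 10 were found in the count tables by their Ensembl identifiers in the mouse annotation GENCODE M21. The study had 1 group and no treatment: liver of strain B6NCrl at embryonic day 13.5, sequenced as 2 libraries that the labels number as biological replicates from separate biosamples. Each biosample pooled embryos of both sexes, and how many embryos entered a pool is not given in the sources used here. RNA below 30 bases was selected. Bulk tissue was sequenced, so fewer cells of a type and less of a microRNA per cell cannot be told apart.

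The miR-200 family keeps epithelial cells epithelial. Its members bind the messenger RNAs of the transcription factors ZEB1 and ZEB2, which repress E-cadherin and other adhesion genes, and the ZEB factors in turn repress the miR-200 promoters. Mir203 and Mir205 are best known from skin and other stratified epithelia, Mir375 from the endocrine cells of the pancreas, where it restrains insulin release, and Mir216a and Mir217 from the acinar cells, which make digestive enzymes. At this age the liver mainly makes blood, while its hepatoblasts, the epithelial precursors of hepatocytes and bile duct cells, are still immature.

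The mature sequences are shown because small differences between them separate the members. A mature microRNA recognises its targets chiefly through the seed, bases 2 to 8 from its 5′ end, given here in capitals. The sequences are those of RefSeq on GRCm38.p6, the same build as mm10, and 9 of the 10 genes are shown, each by 1 arm. The first 3 share a seed, and the next 2 share another.
miR-429-3p: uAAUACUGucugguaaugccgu
miR-200b-3p: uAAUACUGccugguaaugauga
miR-200c-3p: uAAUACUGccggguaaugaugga
miR-200a-3p: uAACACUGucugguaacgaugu
miR-141-3p: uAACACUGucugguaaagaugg
miR-203-3p: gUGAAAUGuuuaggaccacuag
miR-205-5p: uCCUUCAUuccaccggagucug
miR-216a-5p: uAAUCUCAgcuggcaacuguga
miR-217-5p: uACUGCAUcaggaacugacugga

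Within the miR-200 family the seeds differ by a single base, U4C from miR-200b-3p to miR-200a-3p, counted from the 5′ end. No mature sequence outside the family carried either miR-200 seed among the 1738 in the RefSeq table, and the seeds of miR-203-3p, miR-205-5p, miR-216a-5p and miR-217-5p were shared with no other gene there. The closest pairs were miR-200a-3p and miR-141-3p, which differ by C17A and U22G and are identical over their first 16 bases, and miR-200b-3p and miR-200c-3p, which differ by U11G and A22G. In a search of 2202 microRNA transcripts of GENCODE M21, the longest word shared with another microRNA locus was 17 bases, between the hairpins of Mir200a and Mir141. The rest of the genome was not searched. For Mir200b and Mir200c it was 14 bases, and for the other 6 genes it was 10 to 14 bases. Reads that mapped to several places were left out of the gene counts, so a fragment short enough to lie within such a word would not be counted. The tables give 1 value per hairpin, without its arms.

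Libraries held 2607403 counts on the strand of microRNA genes in replicate 1 and 4286742 in replicate 2. Reads that mapped to several places made up 36.7% and 32.0% of all reads. Levels are given as CPM, counts per 1000000 of these totals. The liver label was checked against Mir122, the hallmark microRNA of hepatocytes, which ranked first of all genes with 79994 ± 213 CPM (SD, n = 2). Detection required 10 or more counts in replicate 1 and in replicate 2. By this measure 9 of the 10 genes were detected, against 18.6% of all 1973 genes, and the exception was Mir216a.

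The 10 genes together held 0.484% of counts in replicate 1 and 0.548% in replicate 2. Mir122 outnumbered their sum by 16.5-fold in replicate 1 and 14.6-fold in replicate 2. The epithelial list summed to 3179 and 3683 CPM in the 2 libraries (3431 ± 356, SD, n = 2) and the pancreatic list to 1664 and 1793 CPM (1728 ± 91.1). Each sum leaned on 1 gene. Mir429 gave 41.7% ± 1.72 of the epithelial counts, and Mir375 gave 99.2% ± 0.0552 of the pancreatic counts. No p-value is given for levels, since an exact two-sided permutation test over 2 libraries cannot go below p = 0.5.

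**Figure D1:**
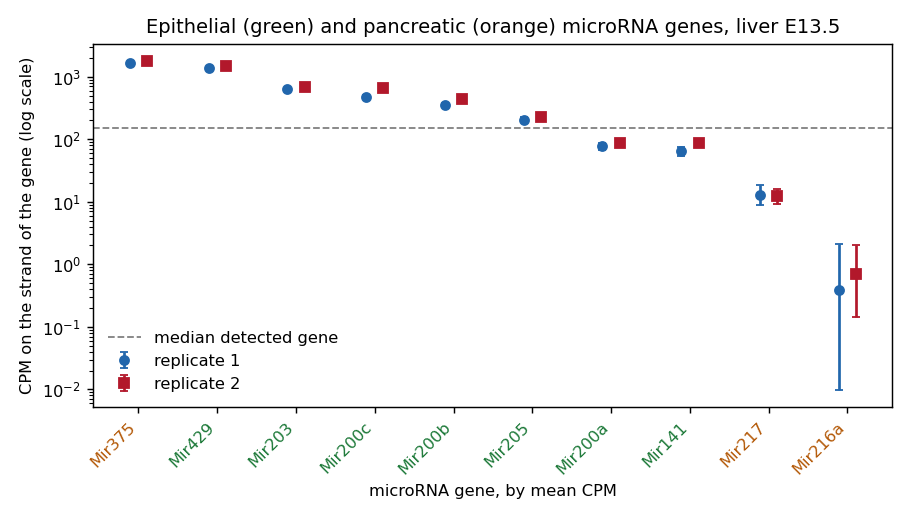
CPM of each gene on a log axis in replicate 1 (circles) and replicate 2 (squares), with exact 95% Poisson intervals for counting error only; epithelial genes are named in green and pancreatic genes in orange, and the dashed line is the median detected gene at 150.03 CPM. Levels fall from 1715 CPM for Mir375 to 1 and 3 counts for Mir216a, and 6 genes lie above the dashed line.

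The ranking of the genes follows the number of reads. A read of this size-selected RNA was taken as 1 microRNA, so CPM was not divided by hairpin length. The values are read levels and were not calibrated to molecules. Mir375 was highest and Mir429 followed, at ranks 80 and 84 of all counted genes. Mir203, Mir200c, Mir200b and Mir205 came next at ranks 117, 123, 135 and 166, all above the median detected gene. Mir200a and Mir141 lay below that median at ranks 211 and 214, and Mir217 lay at rank 291. By the mean of the 2 libraries Mir375 stood between Mir181c at 1793 ± 27.2 CPM and Mir342 at 1641 ± 370 CPM, and Mir429 between Mir494 at 1494 ± 50.7 CPM and Mir10b at 1402 ± 27.6 CPM. These 4 were chosen only for their place in the ranking by mean, which did not hold in each library. Mir429 lay below both of its neighbours in replicate 1 and above both in replicate 2, and Mir375 lay below Mir342 in replicate 2.

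**Figure D2:**
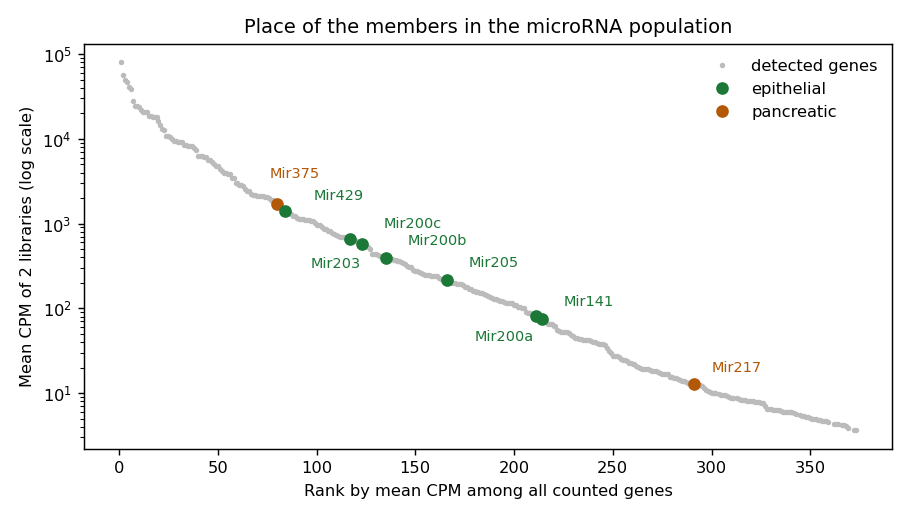
Mean CPM of the 367 detected genes on a log axis against rank among all counted genes, with the 7 epithelial genes in green and the 2 detected pancreatic genes in orange. Mir375 and Mir429 lie at ranks 80 and 84, while Mir217 lies at rank 291.

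The chromosome 4 cluster of the miR-200 family holds Mir200b, Mir200a and Mir429, in this order along the minus strand. Its hairpins lie at chr4:156055681-156055750, chr4:156054896-156054985 and chr4:156053905-156053987 (mm10). They lie within the span of the protein-coding gene Ttll10, in an intron and on its strand, and the hairpin of Mir429 also overlaps an exon of the processed transcript Gm13648. Such neighbours are commonly processed from a shared primary transcript. Their read levels were far apart.

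Mir429 had 3559 counts in replicate 1 and 6393 in replicate 2, or 1365 and 1491 CPM (1428 ± 89.4, SD, n = 2). Mir200b had 923 and 1890 counts, or 354 and 441 CPM (397 ± 61.4). Mir200a had 200 and 369 counts, or 76.7 and 86.1 CPM (81.4 ± 6.63). The 3 ranges did not overlap, so the order Mir429, Mir200b, Mir200a was the same in both libraries. Mir429 exceeded Mir200b by 3.86-fold in replicate 1 (exact binomial 95% interval 3.59 to 4.15) and 3.38-fold in replicate 2 (3.21 to 3.56). It exceeded Mir200a by 17.8-fold (15.4 to 20.6) and 17.3-fold (15.6 to 19.3). Mir429 thus made up 76.0% and 73.9% of the counts of its cluster.

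The chromosome 6 cluster holds Mir200c at chr6:124718322-124718390 and Mir141 at chr6:124717914-124717985, with 336 bases between them. Both lie on the minus strand in an intron of the antisense gene Gm15884, between the protein-coding genes Phb2 and Ptpn6, and Mir141 also overlaps the exon of the unclassified transcript Gm29008. Mir200c had 1238 and 2881 counts, or 475 and 672 CPM (573 ± 139, SD, n = 2). Mir141 had 167 and 372 counts, or 64.0 and 86.8 CPM (75.4 ± 16.1). Both genes were lower in replicate 1. Their ratio was 7.41-fold (6.30 to 8.77) and 7.74-fold (6.95 to 8.65), with intervals that overlapped.

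**Figure D3:**
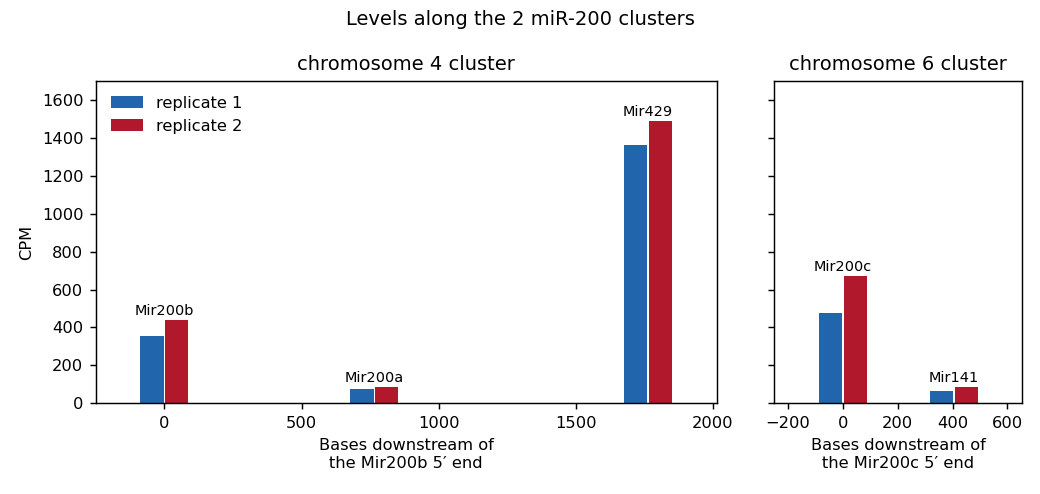
CPM of the miR-200 genes in each library (bars, replicate 1 blue and replicate 2 red) against the distance in bases from the 5′ end of the first hairpin of each cluster, drawn to one scale. Mir429, the last hairpin of the chromosome 4 cluster, is the highest at 1365 and 1491 CPM, and Mir200a and Mir141 are the lowest of their clusters.

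Summed over its members, the chromosome 4 cluster stood at 1796 and 2018 CPM and the chromosome 6 cluster at 539 and 759 CPM. The first exceeded the second by 3.33-fold in replicate 1 (3.14 to 3.54) and 2.66-fold in replicate 2 (2.55 to 2.77), a log2 ratio of 1.57 ± 0.23 (SD, n = 2). The counting intervals of the 2 libraries did not overlap, so the balance of the clusters differed between the libraries beyond counting error. The direction rested on Mir429. In a variant added once the values were seen, which left Mir429 out, the chromosome 6 cluster was the higher, with log2 ratios of -0.32 and -0.53.

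The seed groups lay farther apart than the clusters. Counts are of whole hairpins without their arms, so these are genes sorted by the seed of the arm shown, not counts of a seed. Mir200a and Mir141 also share the longest word, 17 bases. Whether reads left out for fitting both lowered their counts was not tested. The group of Mir429, Mir200b and Mir200c summed to 2194 and 2604 CPM, and the group of Mir200a and Mir141 to 141 and 173 CPM. The first group exceeded the second by 15.6-fold in replicate 1 (14.02 to 17.4) and 15.1-fold in replicate 2 (13.99 to 16.3), and here the intervals of the libraries overlapped. In both clusters the gene of the second seed was the lowest. Within the second group Mir200a and Mir141 could not be ranked. Mir200a gave 54.5% of its counts in replicate 1 (49.2% to 59.7%) and 49.8% in replicate 2 (46.1% to 53.5%), so both intervals include an even split. Mir200c exceeded Mir200b, its closest relative by sequence, by 1.34-fold (1.23 to 1.46) and 1.52-fold (1.44 to 1.62).

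**Figure D4:**
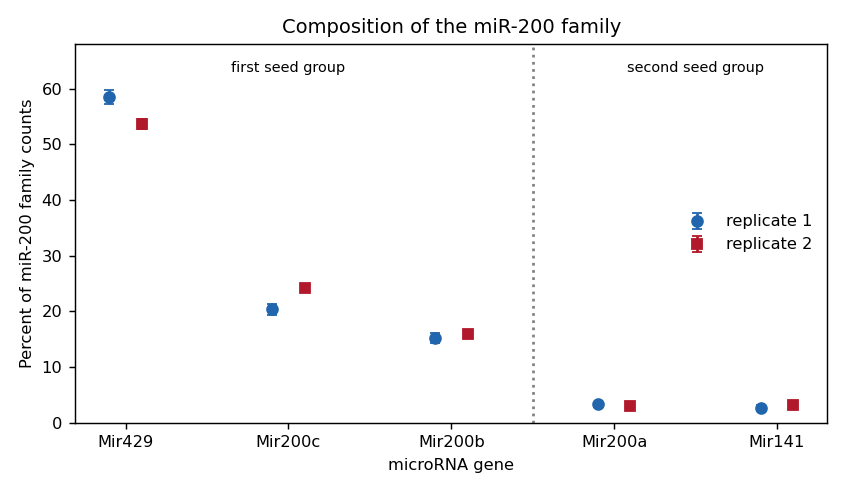
Share of all miR-200 family counts taken by each gene in replicate 1 (circles) and replicate 2 (squares), with exact binomial 95% intervals; the dotted line separates the 2 seed groups. Mir429 takes 58.5% and 53.7%, Mir200c 20.3% and 24.2%, and Mir200a and Mir141 about as much as each other.

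Of the other epithelial genes, Mir203 had the highest mean after Mir429. It lies at chr12:112130880-112130955 on the plus strand, 3321 bases from Aspg. No other GENCODE M21 gene overlaps it, while RefSeq places mature sequences of mmu-miR-203b (Gm51289) on the opposite strand within this hairpin. Mir203 had 1666 and 2910 counts, or 639 and 679 CPM (659 ± 28.2, SD, n = 2). Its range overlapped that of Mir200c: Mir203 was the higher in replicate 1, while in replicate 2 the ratio of Mir200c to Mir203 was 0.990 (0.940 to 1.04), so these 2 could not be ranked there. Mir205 lies at chr1:193507463-193507530 on the minus strand, in an exon of the long non-coding gene 4631405K08Rik. Mir205 had 537 and 972 counts, or 206 and 227 CPM (216 ± 14.7). It stayed below Mir203 by 3.10-fold (2.81 to 3.43) and 2.99-fold (2.78 to 3.22), and between Mir200b and Mir200a in both libraries.

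Among the pancreatic genes the endocrine one was abundant and the acinar ones were rare. Mir375, the endocrine gene, lies at chr1:74900658-74900721 on the minus strand, outside other GENCODE M21 genes and 1350 bases from Cfap65. Mir375 had 4303 and 7628 counts, or 1650.3 and 1779 CPM (1715 ± 91.3, SD, n = 2). It exceeded Mir429 by 1.21-fold (1.16 to 1.26) and 1.19-fold (1.15 to 1.23), and the ranges of the 2 genes did not overlap. Hepatocyte Mir122 was 48.4-fold and 45.04-fold above it.

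Mir216a and Mir217 lie 6644 bases apart on the plus strand at chr11:28757012-28757083 and chr11:28763728-28763835, in introns of the long non-coding gene Gm12082. Mir217 had 34 and 53 counts, or 13.04 and 12.4 CPM (12.7 ± 0.478, SD, n = 2). Mir216a had 1 and 3 counts, which is no more than the 3 counts that an observed 0 allows, so its level was not measurable at this depth. Their neighbour Mir216b, a further acinar microRNA, had 18 and 12 counts. Mir375 outnumbered Mir216a and Mir217 together by 123-fold in replicate 1 (88.3 to 177) and 136-fold in replicate 2 (105 to 180.5). Without Mir375 the pancreatic list came to 13.2 CPM.

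MicroRNAs of related cell types were set beside these genes from lists of markers. The sensory and secretory epithelial genes Mir182, Mir183 and Mir96, which form a cluster, were all detected, at 329 ± 102, 309 ± 5.23 and 137 ± 13.2 CPM (SD, n = 2), within the range of the miR-200 family. Of 9 squamous and airway genes, 7 were detected, led by Mir31 at 380.2 ± 7.27 CPM, the ciliated cell gene Mir449a at 204 ± 14.9 CPM, Mir34c at 168 ± 21.6 CPM and Mir224 at 88.7 ± 26.7 CPM. Mir449b had 2 and 5 counts and Mir449c had 0 in both libraries, which allows up to 3. All 5 gut epithelial genes were detected, led by Mir192 at 2771 ± 195 CPM and Mir194-2 at 1128 ± 129 CPM, which hepatocytes also express, and Mir31. Mir194-2 shares a word of 22 bases with Mir194-1, so its count is uncertain. The intestinal gene Mir215 stood at 7.82 ± 3.46 CPM.

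Of 8 further pancreatic and endocrine genes, 6 were detected, 1 was below the limit (Mir802, at 7 and 11 counts) and 1 was not analysed here. Mir148a, which hepatocytes also express, stood at 1079 ± 35.5 CPM, and Mir7-1, an islet and neural gene, at 248 ± 29.5 CPM. Mir7-1 shares a word of 24 bases with Mir7-2, so both counts are uncertain. Mir7b stood at 22.6 ± 9.67 CPM and Mir7-2 at 19.7 ± 8.38 CPM. Mir375 lay above each of these in both libraries.

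For scale, the hepatocyte list summed to 84981 ± 574 CPM (SD, n = 2), the endothelial list, of which only Mir126a was counted, to 56024 ± 2091 CPM, and the erythroid list to 25512 ± 10639 CPM, led by Mir451a. The epithelial list lay above the striated muscle list at 1045 ± 262 CPM, led by Mir206, and the neural list at 299 ± 1.35 CPM, led by Mir128-1. The muscle and neural lists contain genes with copies, Mir128-1 among them, whose counts can be too low because reads that fit several places were left out. In the muscle list Mir133a-1 and Mir133a-2 were at 0, and in the neural list Mir9-2 and the 3 Mir124a genes, all with copies. Mir133a-1 and Mir124a-1 share words of 31 and 32 bases with their copies, longer than the RNA selected, so these 0 values do not show absence. The epithelial genes share at most 17 bases with other microRNA transcripts, so the lists cannot be ranked fairly by these sums. No list gives a share of cells.

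The libraries were then compared with each other gene by gene, which compares 2 pools of one kind and no conditions. Among the 9 detected genes 8 were higher in replicate 2, against 44.4% of all detected genes, and Mir217 was the exception. The 8 include the 5 miR-200 genes, which lie in 2 clusters, so they do not count as separate observations. The two-sided exact binomial test, Benjamini-Hochberg adjusted over all 711 genes that had reads, called 5 of the 10, all higher in replicate 2. Of all genes tested 20.1% were called, 8.58% as higher and 11.5% as lower, and among the 367 detected genes 37.6% were called in either direction. The test counts reads only, so an abundant gene passes it at a small difference. Scaling changed the balance over all genes from 61 higher and 82 lower to 72 higher and 63 lower with TMM.

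Mir200c differed most among the called genes, by 1.42-fold or 0.50 in log2 (counting interval 0.40 to 0.60, adjusted p = 4.28e-24, exact binomial test). Its neighbour Mir141 was higher by 0.44 (adjusted p = 0.00641, exact binomial test), and Mir200b by 0.32 (adjusted p = 3.44e-07, exact binomial test). Mir429 and Mir375 were called at only 0.13 and 0.11 in log2 (adjusted p = 0.000176 and 0.000584, exact binomial test). Mir200a at 0.17, Mir203 at 0.09, Mir205 at 0.14 and Mir217 at -0.08 were not called.

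These differences were within the range of differences over all detected genes, which include genes with few counts and wide counting error. Among genes with a higher mean CPM than Mir200c, only Mir451a at 1.29, Mir541 at 0.55 and Mir206 at -0.74 in log2 differed by more. The spread beyond counting error, edgeR's biological coefficient of variation, was 13.6%, and 10% of detected genes differed by more than 0.68 in log2. The differences of Mir200c, Mir141 and Mir200b exceeded those of 82.0%, 78.5% and 70.3% of detected genes, and those of Mir429 and Mir375 exceeded 39.0% and 34.3%. In the other epithelial lists the test called 1 of 3 sensory and secretory genes and 2 of 9 squamous and airway genes. It also called 2 of 5 gut genes, Mir192 and Mir194-2, which are in the hepatocyte list too. All called genes of these lists were higher in replicate 2. Over all genes 20.1% of those tested and 37.6% of those detected were called in either direction. Among the called genes of the epithelial lists the largest rises were those of Mir182 at 0.64 (adjusted p = 1.37e-22, exact binomial test) and Mir224 at 0.62 (adjusted p = 4.1e-06, exact binomial test). Mir215 was higher by 0.93 and not called. Mir183 and Mir31 differed by 0.03 and 0.04. Mir34b at -0.51, Mir184 at -0.44 and Mir449a at -0.15 were lower and not called. Calls were not limited to epithelial lists. Of 7 further pancreatic and endocrine genes counted, 3 were called, all higher. Of 8 striated muscle genes counted, 5 were called, 2 of them higher. Of 10 neural genes counted, 3 were called, 2 of them higher. Over the same libraries the summed erythroid list went from 17989 to 33035 CPM through Mir451a alone, at 10749.8 and 26342 CPM. The other 2 erythroid genes were not higher in replicate 2: Mir144 was at 6405 and 5873 CPM and was called lower (adjusted p = 8.05e-17, exact binomial test), and Mir486 was at 834 and 819.5 CPM. The hepatocyte list went from 84575 to 85387 CPM and the endothelial list from 57502 to 54545 CPM. No gene counted in these 3 lists was at 0. The part of other cell types or of depth in the differences was not tested.

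**Figure D5:**
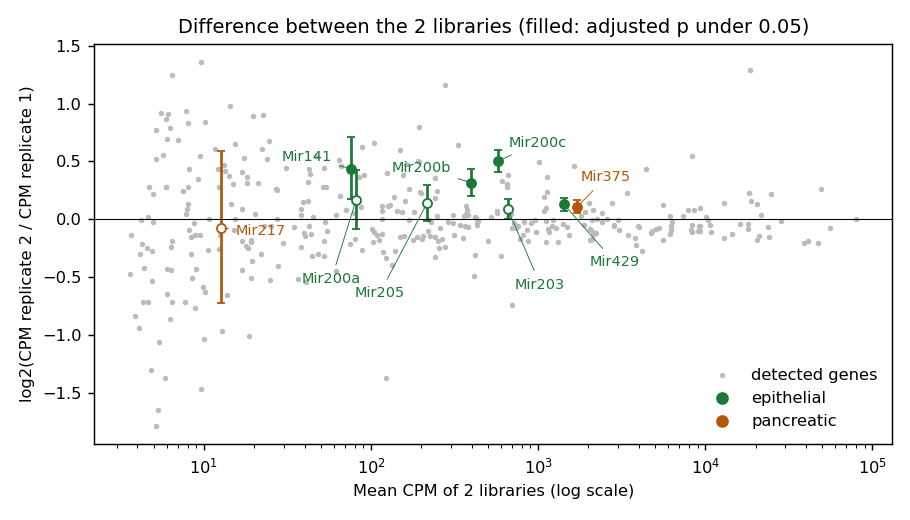
Log2 ratio of CPM in replicate 2 to replicate 1 against mean CPM (log axis) for the 367 detected genes (grey), with the 7 epithelial genes in green and Mir375 and Mir217 in orange; bars are exact binomial 95% intervals and filled points were called. Mir200c lies highest of the labelled genes at 0.50, and among genes of higher mean CPM only Mir451a, Mir541 and Mir206 differ by more.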

How the data were processed

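Small RNA of 2 libraries was analysed from the authors' deposited tables of raw read counts per gene, on mm10 with GENCODE M4 per the lists of files deposited with them. No aligner or counter is named there (not given in the sources used here). Sense counts, those on the gene's own strand, were scaled to CPM by their totals. Reads unmapped (19.6% and 24.2%), mapped to several places or in no gene (5.72% and 5.64%) stayed out. Names and positions came from GENCODE M21, which matched 1894 of 1973 identifiers, and sequences from RefSeq. The members, the lists and the rule for named genes (all members, their neighbours in rank, and up to 4 detected genes of each list) were chosen with earlier results of these data known. Libraries were compared by an exact binomial test against the split of the totals, tested on simulated data. The simulated counts had Poisson counting error only, so they do not show how the test behaves at the spread of these libraries. edgeR 4.0.16 gave the spread (TMM, intercept only), since its quasi-likelihood test cannot be fitted to 1 group. DESeq2 1.42.0 gave alternative size factors. Other steps used Python 3.11.15 and scipy 1.17.1. Intervals are exact, at 95%, and cover counting error only, as reads carry no molecular identifiers in these tables. Alternatives were both strands, other scalings, count minimums, hairpin length and each library alone.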

Additional observations from a re-analysis of the deposited data

Results flagged for a closer look

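A signal appeared in counts that the levels above leave out. On the strand opposite Mir203 there were 14 counts in replicate 1 and 19 in replicate 2, above the 3 counts that an observed 0 allows. They were 0.833% (exact binomial 95% interval 0.456% to 1.39%) and 0.649% (0.391% to 1.01%) of all counts at this locus. These shares are low beside those over all microRNA genes, where 10.4% and 10.5% of counts lay on the opposite strand. RefSeq places mature sequences of another microRNA, mmu-miR-203b (Gm51289), on that strand, at chr12:112130887-112130908 and chr12:112130927-112130946 (GRCm38.p6). Whether the reads come from it was not tested. The other 9 genes had 0 counts on the opposite strand in both libraries.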

How the results depend on the processing

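Without Mir429, a variant added once the values were seen, the log2 ratio of the miR-200 clusters turned from 1.57 to -0.42, the log2 ratio of the seed groups fell to 2.62, and the epithelial list fell to 2003 CPM. Without Mir375, added likewise, the pancreatic list was 13.2 CPM. With counts from both strands the pancreatic list came to 1548 CPM in place of 1728 CPM, because the total grew, and 6 member levels also moved by more than 1 SD, each by at most 1.12-fold. Leaving out each library in turn moved member levels by at most 1.41-fold, the cluster ratio ran from 1.41 to 1.74 and the seed ratio from 3.91 to 3.96. The number of members detected ran from 8 to 10 over all count minimums. Members called between the libraries numbered 5, or 6 with TMM, where Mir203 joined at 0.12 in log2 (adjusted p = 0.0423, exact binomial test). Divided by hairpin length, Mir141 and Mir200a changed places. Estimates of the coefficient of variation lay between 13.3% and 13.6%. No paired analysis was possible because there is only 1 group. With 2 libraries, spreads are imprecise.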
